A study of Mus musculus with 6 samples.

Results

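Olfr618 and the olfactory receptor genes numbered around it, Olfr600 to Olfr699, were examined in neurospheres that overexpress Bmi1 and in neurospheres with an empty vector. The genes were taken by symbol from the probe sets that name a single gene, with the probe set of the highest mean over all arrays where a gene had more. This gave 74 genes of 19938 genes in all, and of 1026 olfactory receptor genes measured on the arrays. Olfr618 was selected on its low values with Bmi1 in this same comparison, so its values are a description and carry no test. The other 73 genes entered by number alone.

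The study asked which genes change when Bmi1, a Polycomb protein that takes part in gene silencing, is overexpressed in neural stem/progenitor cells. Cells of the lateral ventricle wall of CD1 mice aged 4 to 6 weeks were grown as neurospheres, which are floating spheres of cultured stem/progenitor cells. The 3 arrays titled Bmi1 overexpression came from cells transduced with a retroviral vector for Bmi1, which the labels call pCMMP-Bmi1 while the study's text names a FLAG-tagged Bmi1 for the arrays, and the 3 arrays titled empty vector control came from cells transduced with the same vector without an insert. Both groups were sorted on eGFP, which the vector also encodes, and cultured at 2000 cells per well. The submitters call the 3 cultures of a group independent, and no source used here says whether they came from separate mice, so p-values rest on the spread among these cultures. Arrays were grouped by title, transduction and genotype, which match on every array, although the source entry of the 6 arrays is the other way round. By that entry the sign of each difference below would turn.

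Olfactory receptors are G protein-coupled receptors with which sensory neurons of the nose detect odorants. A mature olfactory sensory neuron uses a single receptor gene, while its other receptor genes are held silent. Mammalian receptors fall into class I, first known from fish, and class II, and the class I genes of the mouse lie together on chromosome 7 around the beta-globin genes. In the mouse olfactory receptor (MOR) nomenclature, class I carries the family numbers 1 to 42. All 74 genes were found in RefSeq on chromosome 7 as protein-coding genes, 68 of them with a class I name. Of the other 6, the 5 genes of family MOR283 stood at the end of the row of genes, and Olfr652 is named MOR318.

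Olfr618 is named MOR31-9, and the genes directly before and after it in RefSeq gene order, Olfr617 (MOR31-10) and Olfr619 (MOR31-5), belong to the same family. The windows around the annotated gene starts of Olfr618 and Olfr619 are shown as those of adjacent genes with lower values in all Bmi1 arrays, and Olfr617, of which this also holds, is named only. They hold 250 bases before and 50 bases after the start in GRCm38.p6, as given by RefSeq. The window of Olfr618 lies at chr7:103597068-103597367 and that of Olfr619 at chr7:103603339-103603638, both on the plus strand. Capitals mark the ATG with which the gene model of Olfr618 begins and, in Olfr619, a match to the homeodomain motif TAATTG on the other strand.
Olfr618: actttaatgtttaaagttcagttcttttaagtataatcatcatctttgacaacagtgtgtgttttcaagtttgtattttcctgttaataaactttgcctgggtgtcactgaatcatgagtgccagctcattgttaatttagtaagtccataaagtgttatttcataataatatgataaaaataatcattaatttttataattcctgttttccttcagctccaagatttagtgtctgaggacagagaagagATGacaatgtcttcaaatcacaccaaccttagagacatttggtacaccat
Olfr619: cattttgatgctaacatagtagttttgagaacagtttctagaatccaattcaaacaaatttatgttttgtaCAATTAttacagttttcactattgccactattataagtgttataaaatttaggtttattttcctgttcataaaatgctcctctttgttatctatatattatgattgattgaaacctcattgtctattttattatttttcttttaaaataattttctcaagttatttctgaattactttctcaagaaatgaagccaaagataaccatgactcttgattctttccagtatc
The window of Olfr618 was 68.7% A+T and that of Olfr619 was 74.3% A+T. The median was 63% (50% to 74.3%) in the 64 members with a window. It was 65% in the windows of all olfactory receptor genes and 47.3% in all 32851 windows. Both strands were searched for TAATTG and for the Olf/Ebf site, here TCCC followed by any 2 bases and GGGA, both of which are known from olfactory receptor promoters. TAATTG was found in 15 of 64 windows of members (23.4%), in 23.2% of the windows of all olfactory receptor genes and in 8% of all windows. The Olf/Ebf site was found in 1 of 64 windows of members (1.56%), in 0.527% of those of all olfactory receptor genes and in 0.904% of all windows. The window of Olfr618 held neither motif and that of Olfr619 held 1 match to TAATTG. Of the 64 windows, 48 have ATG at the gene start, so that for these the window surrounds the start of the coding sequence.

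Expression was read on Mouse Gene ST 1.0 arrays of Affymetrix with 1 array per culture, and the values are log2 expression by robust multi-array average (RMA). Array medians lay between 4.37 and 4.45, and arrays correlated at 0.991 to 0.993 within a group and at 0.985 to 0.987 between groups. Differences are log2 values with Bmi1 overexpression minus those with the empty vector. A gene rose or fell where limma gave an adjusted p under 0.05 (Benjamini-Hochberg over all 35557 probe sets), and 5.7% of all probe sets passed, 3.46% lower and 2.23% higher. After median centring of the arrays, 28.8% of the calls were rises, against 39.2% in the values as deposited. The table gives no detection calls. Probe sets differ in how strongly they respond, so levels are compared between groups for a gene and not between genes. Bmi1 itself read 9.18, 8.36 and 8.42 with Bmi1 overexpression and 7.70, 8.40 and 8.31 with the empty vector, so that the groups overlapped and the targeted gene was not called (log2 difference 0.52, limma adjusted p = 0.38). Without Bmi1 replicate 1 the difference of Bmi1 was 0.25, and without empty vector replicate 1 it was 0.30. It is not known from the sources used here whether the Bmi1 probes read the transcript of the construct, so this value may not measure the overexpression.

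Olfr618 (probe set 10555803) had log2 values of 3.72, 3.37 and 2.94 with Bmi1 overexpression and of 7.73, 7.50 and 7.48 with the empty vector. The groups were far apart, and the spread among the Bmi1 arrays was wider than among the empty vector arrays. The mean was 3.34 ± 0.39 with Bmi1 and 7.57 ± 0.14 with the empty vector (SD, n = 3 each), a log2 difference of -4.23 or an 18.7-fold lower value. Among all probe sets this was the difference of rank 2 on the falling side. RMA compresses changes of probe sets that end near the low end of the scale, and the fold is approximate. When any single array was left out, the difference lay between -4.42 and -4.02. In bulk samples such as these, fewer cells that carry a transcript and less of it per cell cannot be told apart.

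No member other than Olfr618 passed the test with its brightest probe set. Of the 73 other genes, 0 rose and 0 fell, against 5.7% of all probe sets, and 3 of 73 had an unadjusted p under 0.05, against 19.9% of all probe sets. The median log2 difference of the 73 genes was 0.04 (range -0.42 to 0.34), with 46 genes above 0 and 27 below, and the median over all probe sets was 0.02. After median centring the median of the 73 genes was -0.01. The median in each array over the 73 genes was 2.53, 2.59 and 2.59 with Bmi1 and 2.58, 2.46 and 2.50 with the empty vector, and these values overlapped between the groups. Of the 73 genes, 94.5% had a difference of less than 0.25 in size, against 92.3% of the 952 other olfactory receptor genes on the arrays and 76% of all probe sets. These sets differ in level. A mean of at least 4 was reached by 2 of the 73 genes and 28 of the 952, against 19894 of all 35557 probe sets. None of the 73 genes had a 95% confidence interval that reached a change of 1 in either direction, with a median half-width of 0.27 and a widest of 0.58. Most of their array values lie near the low end of the scale, where RMA compresses changes. The intervals are of array values and do not bound a change in transcript. Whether these genes are expressed was not tested. The call changed for Olfr633 without Bmi1 replicate 2 and for Olfr617 with the mean of its probe sets, and each setting then gave 1 call among the 73 genes.

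**Figure D1:**
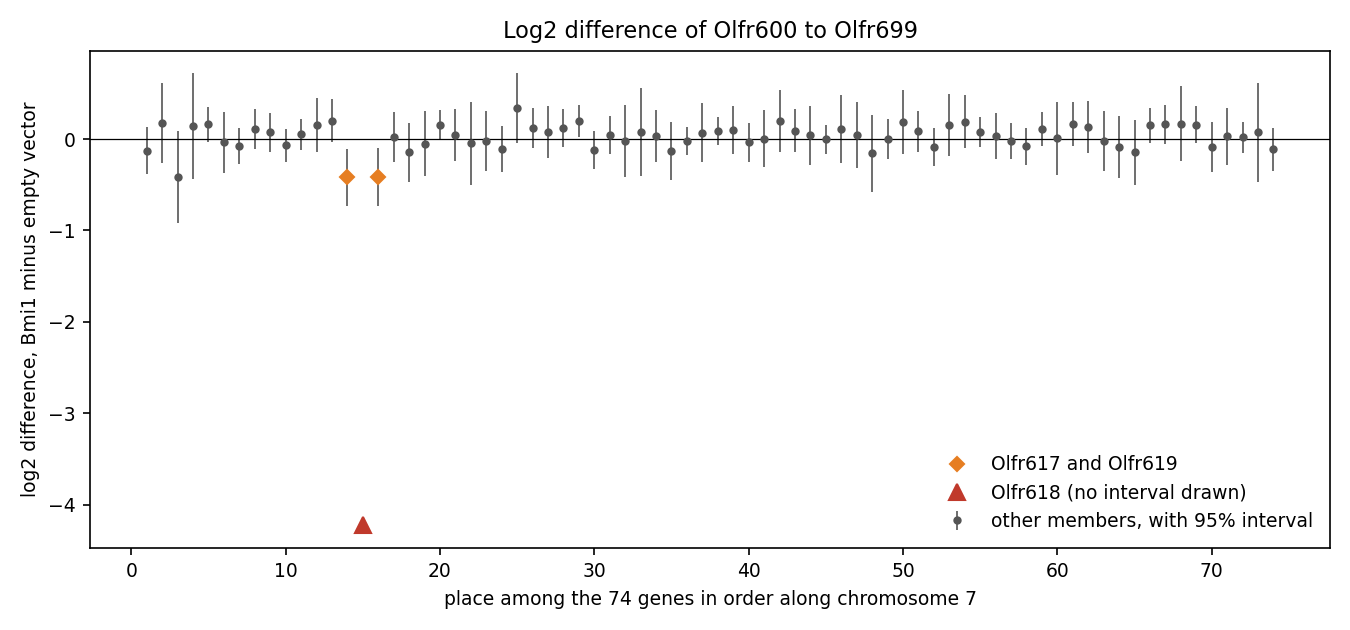
Log2 difference, Bmi1 overexpression minus empty vector (y axis), of the 74 genes by their place in order along chromosome 7 (x axis), with bars for the 95% confidence interval of the genes other than Olfr618. Olfr618, at place 15, lies at -4.23, while the other 73 genes lie between -0.42 and 0.34.

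The genes next to Olfr618 on either side were also lower with Bmi1, by a much smaller amount. Olfr617 is measured by 2 probe sets of its own, the single member for which this holds. Its brighter one (10555801) read 2.55, 2.78 and 2.91 with Bmi1 overexpression and 3.26, 3.27 and 2.96 with the empty vector. All 3 Bmi1 values lay below the 3 empty vector values, and the log2 difference was -0.42, with an interval of -0.73 to -0.11 (95% confidence). This was not called (limma adjusted p = 0.14). The other probe set of Olfr617 (10555807) read 2.11, 2.02 and 2.02 with Bmi1 and 2.47, 2.49 and 2.52 with the empty vector. It fell by 0.44 on the log2 scale (limma adjusted p = 0.015), and with the mean of both probe sets the gene fell by 0.43 (limma adjusted p = 0.026).
Olfr619 (probe set 10555805) read 1.84, 1.89 and 1.85 with Bmi1 overexpression and 2.57, 2.14 and 2.12 with the empty vector. The groups did not overlap, and empty vector replicate 1 stood above its group. The log2 difference was again -0.42, with an interval of -0.73 to -0.10 (95% confidence), and was not called (limma adjusted p = 0.14). Without empty vector replicate 1 the log2 difference of Olfr619 was -0.27. Olfr617 and Olfr619 were the 2 genes of the 73 that were lower in all Bmi1 arrays than in any empty vector array. The same held for 36 of the 952 other olfactory receptor genes and for 12.9% of all probe sets. Genes of a MOR family are related in sequence. Probe sequences were not used here, and the part of shared sequence in the values of Olfr617 and Olfr619 was not tested.

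Beyond these direct neighbours the values were close to each other in both groups. Before Olfr617, the genes Olfr611, Olfr613, Olfr615 and Olfr616 had log2 differences of -0.07, 0.05, 0.15 and 0.20. After Olfr619, the genes Olfr620, Olfr622, Olfr623 and Olfr624 had log2 differences of 0.02, -0.15, -0.05 and 0.15. These 8 genes belong to other MOR families than MOR31, and none passed the test (adjusted p = 0.29 to 0.94 from limma). In Olfr624 the Bmi1 values of 2.27, 2.16 and 2.19 all lay above the empty vector values of 2.03, 2.12 and 2.02, while in the other 7 the groups overlapped.

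**Figure D2:**
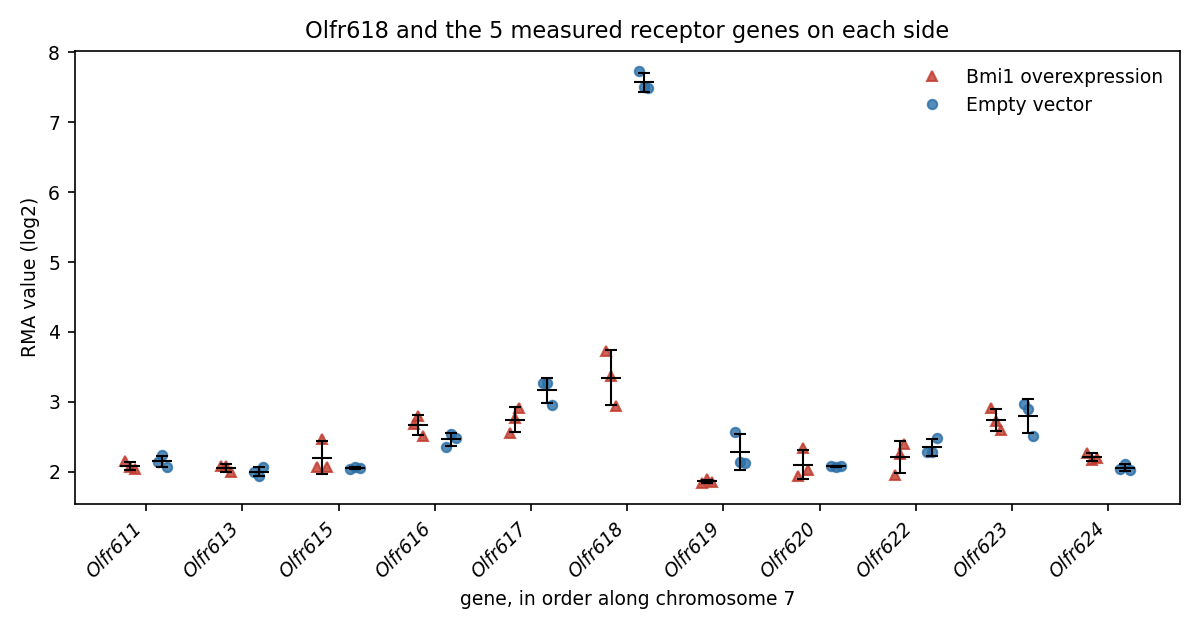
RMA values on the log2 scale (y axis) of Olfr618 and the 5 measured olfactory receptor genes on each side in order along chromosome 7 (x axis), with triangles for the 3 Bmi1 arrays, circles for the 3 empty vector arrays, and bars for mean and SD. Olfr618 reads 2.94 to 3.72 with Bmi1 and 7.48 to 7.73 with the empty vector, and Olfr617 and Olfr619 are lower in all Bmi1 arrays.

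The MOR31 family is spread along the chromosome, and none of its genes apart from the 3 adjacent ones was lower in all Bmi1 arrays. Of 11 MOR31 genes measured, 8 are in the number range, and 3 lie outside it (Olfr547, Olfr549 and Olfr67). The 8 genes other than Olfr617, Olfr618 and Olfr619 had log2 differences from -0.19 (Olfr549) to 0.18 (Olfr67), and 0 of 8 passed the test, against 5.7% of all probe sets. Olfr648 read 2.81, 2.80 and 2.89 with Bmi1 and 2.88, 2.84 and 2.84 with the empty vector. Olfr690 was the single gene of these 8 whose groups did not overlap, at 2.46, 2.69 and 2.45 with Bmi1 and 2.43, 2.34 and 2.36 with the empty vector, the opposite direction to Olfr618. The family was singled out after these values were seen.

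**Figure D3:**
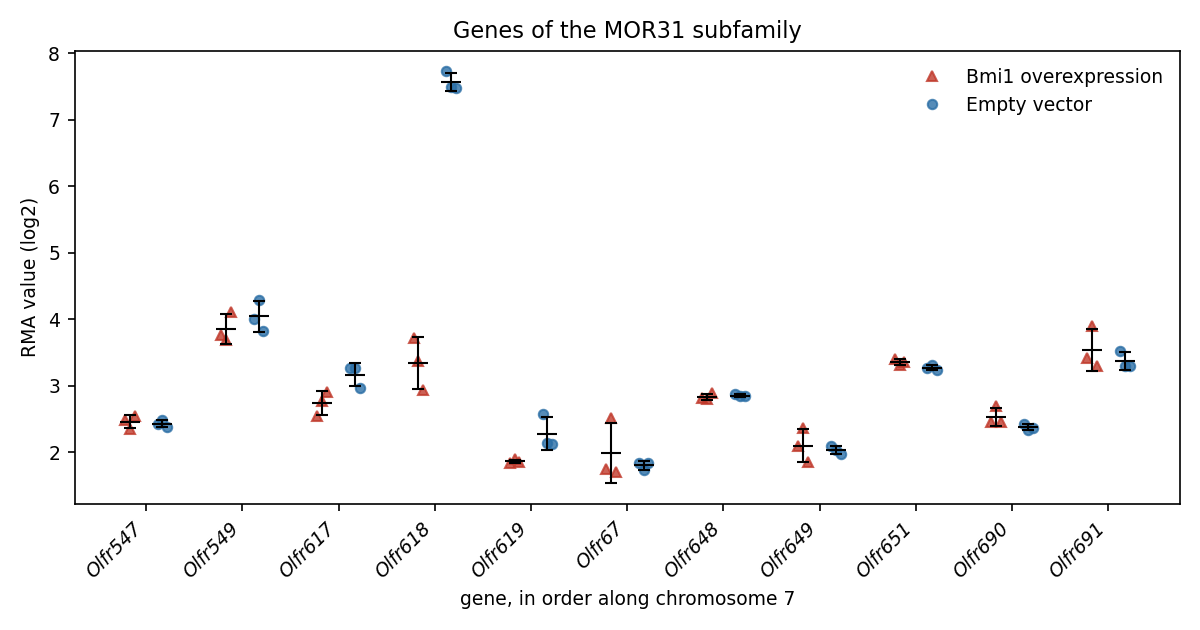
RMA values on the log2 scale (y axis) of the 11 measured MOR31 genes in order along chromosome 7 (x axis), with triangles for the 3 Bmi1 arrays, circles for the 3 empty vector arrays, and bars for mean and SD. Only the adjacent genes Olfr617, Olfr618 and Olfr619 of the 11 are lower in all Bmi1 arrays than in any empty vector array.

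Further MOR families in the row of genes showed no member past the test. The 6 families with at least 4 members besides Olfr618 hold 40 genes, among them MOR31. The median log2 difference was 0.04 in MOR13 (6 genes, -0.12 to 0.20), 0.02 in MOR32 (8 genes, -0.41 to 0.19), 0.09 in MOR34 (7 genes, -0.08 to 0.19), 0.04 in MOR40 (7 genes, -0.16 to 0.17) and 0.02 in MOR283 (5 genes, -0.11 to 0.07). The 67 other genes with a class I name had a median of 0.04 and the 6 genes with a higher MOR number a median of 0.02.
The lowest differences after those of Olfr617 and Olfr619 were those of Olfr603, Olfr663 and Olfr622, none past the test, with log2 differences of -0.41, -0.16 and -0.15. Olfr603 read 2.13, 2.64 and 2.69 with Bmi1 and 2.79, 2.67 and 3.25 with the empty vector, with overlapping groups and an adjusted p of 0.35 from limma. Without Bmi1 replicate 1 or empty vector replicate 3 the difference of Olfr603 was -0.24. The highest differences upward were 0.34 for Olfr633, 0.20 for Olfr616, 0.20 for Olfr640, 0.19 for Olfr655 and 0.19 for Olfr670. Olfr633 read 4.02, 3.44 and 3.93 with Bmi1 and 3.44, 3.52 and 3.42 with the empty vector, so that Bmi1 replicate 2 lay among the empty vector values (adjusted p = 0.30 from limma). Without Bmi1 replicate 2 the log2 difference of Olfr633 was 0.52 (adjusted p = 0.041 from limma). Olfr640 read 2.47, 2.46 and 2.32 with Bmi1 and 2.21, 2.25 and 2.18 with the empty vector, without overlap. Higher values without overlap were present in 5 of 73 genes, Olfr606, Olfr624, Olfr640, Olfr689 and Olfr690, against 13.8% of all probe sets, and their log2 differences lay between 0.15 and 0.20.
The 5 members with the highest mean array value apart from Olfr618 were Olfr632, Olfr678, Olfr656, Olfr658 and Olfr633, which is an order of probe set values and not of transcript levels. Olfr632 read 4.68, 4.43 and 4.75 with Bmi1 and 4.79, 4.76 and 4.63 with the empty vector (log2 difference -0.11). Olfr678 had a mean of 4.34 ± 0.31 with Bmi1 and of 4.33 ± 0.12 with the empty vector (SD, n = 3 each), and Olfr656 and Olfr658 had log2 differences of 0.09 and -0.00. The values of the 73 genes lay between 1.52 and 4.79 over all arrays. At the ends of the number range, Olfr600 and Olfr699 had log2 differences of -0.13 and -0.11, and Olfr599 and Olfr700 just outside it had -0.15 and -0.00. A further 8 probe sets name a gene of the range together with another receptor gene and were left out by the rule, and their log2 differences lay between -0.13 and 0.24 with 0 past the test.

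Calls were also rare among the other olfactory receptor genes of the mouse. Of these 952 genes, 2 rose and 2 fell, against 5.7% of all probe sets, with a median log2 difference of 0.02 (range -0.61 to 0.61). The groups did not overlap in 95 of 952 genes (9.98%) and in 7 of the 73 genes (9.59%), against 26.6% of all probe sets. The genes that rose were Olfr1480 (log2 difference 0.61, adjusted p = 0.021 from limma) and Olfr147 (0.47, adjusted p = 0.034), and those that fell were Olfr286 (-0.61, adjusted p = 0.041) and Olfr749 (-0.34, adjusted p = 0.038). These 4 were named after their values were seen. Without any single array, 0 or 1 of the 952 genes passed.

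**Figure D4:**
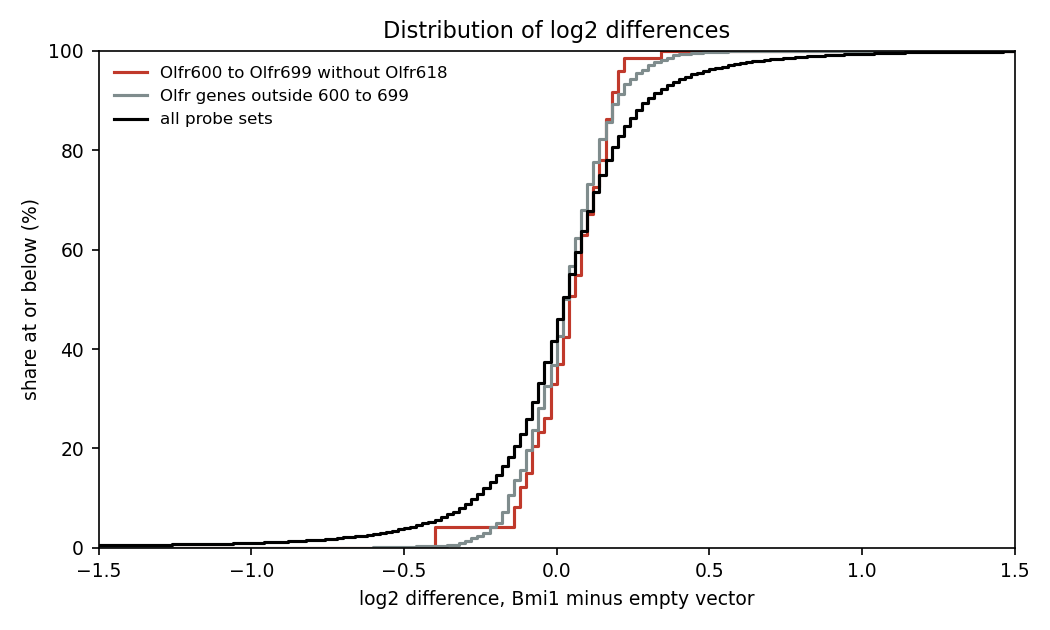
Share of genes or probe sets (y axis, percent) at or below a given log2 difference, Bmi1 overexpression minus empty vector (x axis), on a fixed grid of differences, for the 73 genes, the 952 other olfactory receptor genes and all 35557 probe sets. The curves of the receptor genes are steeper than that of all probe sets, with 94.5% and 92.3% within 0.25 of 0 against 76%, and Olfr618 is not included. Most receptor genes have low array values, where RMA compresses changes.

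The chromosomal stretch of the receptor genes also holds genes of other kinds. Of 35 such genes measured between Olfr600 and Olfr699, 2 rose and 1 fell, against 5.7% of all probe sets, while 32 were not called, with a median log2 difference of 0.05. The nearest measured on either side of Olfr618 were Usp17lc, a deubiquitinase gene, at 0.15 (adjusted p = 0.30 from limma) and the beta-globin gene Hbb-bh2 at -0.00 (adjusted p = 0.99 from limma). The 3 beta-globin and 8 Trim genes measured from lists had 0 calls each by limma, against 5.7% of all probe sets. An unadjusted p under 0.05 was found for 0 of the 3 and 1 of the 8, against 19.9% of all probe sets. Of the listed Trim genes, Trim21 and Trim68 are not among the 35 genes of the stretch. Trim3 and Trim30e-ps1 lie in the stretch but not in the list, and were not called. The genes that passed all lie between the class I genes and the MOR283 genes. Cavin3, a gene of the caveolar coat, read 7.50, 7.47 and 7.51 with Bmi1 and 6.49, 6.32 and 6.20 with the empty vector, a rise of 1.16 (adjusted p = 0.0018 from limma). The cadherin gene Dchs1 rose by 0.63 and the lysosomal protease gene Tpp1 fell by 0.47 (adjusted p = 0.025 and 0.018 from limma). The call of Dchs1 was lost without any single array (limma adjusted p = 0.064 to 0.088) except empty vector replicate 2, and that of Tpp1 without any single array (limma adjusted p = 0.055 to 0.074) except Bmi1 replicate 1.

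Some genes of the machinery that olfactory receptors work with changed, in both directions. Of 19 measured genes of odorant signalling, 1 rose and 2 fell, against 5.7% of all probe sets, and the median log2 difference was -0.06. Adcy3, the adenylyl cyclase of olfactory cilia, rose by 0.42, whereas the phosphodiesterase gene Pde1c and the receptor kinase gene Grk3 fell by 1.05 and 0.59 (adjusted p = 0.033, 0.0054 and 0.023 from limma). The call of Adcy3 was lost whichever array was left out (limma adjusted p = 0.076 to 0.11), and that of Grk3 without any single array (limma adjusted p = 0.056 to 0.089) except Bmi1 replicate 3. Of 20 genes that act in receptor choice, silencing and transport, 0 rose and 1 fell, against 5.7% of all probe sets, with a median of 0.11. This was Ebf1, an Olf/Ebf transcription factor, which read 3.09, 3.04 and 2.99 with Bmi1 and 4.59, 4.65 and 4.85 with the empty vector (log2 difference -1.66, adjusted p = 5.5e-04 from limma). In 11 of these 20 genes (55%) the groups did not overlap, 8 higher and 3 lower with Bmi1, against 26.6% of all probe sets. An unadjusted p under 0.05 from limma was found for 6 of the 20, against 19.9% of all probe sets. Of 13 trace amine receptor genes, another receptor family of the olfactory epithelium, 0 passed by limma, against 5.7% of all probe sets. An unadjusted p under 0.05 was found for 2 of them, against 19.9% of all probe sets. The groups did not overlap in 6 of the 13 genes (46.2%), 1 higher and 5 lower with Bmi1, against 26.6% of all probe sets.
Of 15 olfactory sensory neuron markers, Adcy3 rose, Ebf1 fell and 13 did not pass, against 5.7% of all probe sets called. Their summed log2 values were 65.8 to 67.4 with Bmi1 and 67.0 to 67.9 with the empty vector. These sums include Ebf1, which had a log2 difference of -1.66. The median log2 difference of the 15 markers was 0.02, with 8 above 0 and 7 below. The groups did not overlap in 4 of the 15 markers (26.7%), 3 higher and 1 lower with Bmi1, against 26.6% of all probe sets. Omp, the olfactory marker protein, read 4.47, 4.56 and 4.48 with Bmi1 and 4.89, 4.71 and 4.47 with the empty vector. Cnga2, a subunit of the olfactory cation channel, read 2.57 to 2.69 with Bmi1 and 2.67 to 2.69 with the empty vector. Gnal and Lhx2 were higher in all Bmi1 arrays, with log2 differences of 0.48 and 0.30. Neither was called (adjusted p = 0.056 and 0.066 from limma). Of the markers of the labelled stem and progenitor cells, Nes read 9.59 to 9.69 with Bmi1 and 9.61 to 9.74 with the empty vector, and Sox2 read 10.32 to 10.55 with Bmi1 and 10.17 to 10.22 with the empty vector. Others of the list had low array values. Gfap read 3.46 to 3.53 with Bmi1 and 3.33 to 3.43 with the empty vector. Dcx, which the study's text calls a neuroblast marker, read 3.46 to 3.58 with Bmi1 and 2.90 to 3.07 with the empty vector. Without detection calls, presence was not tested for any of them. Of the 14 genes of this list, 4 rose (Prom1 by 1.58, Hes5 by 1.05, Sox9 by 0.62 and Dcx by 0.55) and 0 fell, against 2.23% higher and 3.46% lower of all probe sets. Without overlap, 8 of the 14 were higher and 3 lower with Bmi1, against 13.8% and 12.9% of all probe sets. The 3 lower ones were Slc1a3, Olig2 and Egfr, with log2 differences of -0.31, -0.19 and -0.14, none past the test. The summed log2 values of the 14 genes were 118.3 to 119.5 with Bmi1 and 114.8 to 115.6 with the empty vector. The call of Dcx was lost without Bmi1 replicate 1 and without empty vector replicates 2 or 3 (limma adjusted p = 0.051, 0.054 and 0.055). The part of these markers in the low values of Olfr618 was not tested. Of the markers of other cells, 0 of 9 microglial and 0 of 10 endothelial genes passed by limma, against 5.7% of all probe sets. An unadjusted p under 0.05 was found for 0 and 1 of them, against 19.9% of all probe sets. Lists this short cannot be told apart from these shares. Of 5 erythroid genes, 1 was called, against 5.7% of all probe sets, and this was the erythropoietin receptor gene Epor, which rose by 0.42 (adjusted p = 0.039 from limma), a call that was lost after median centring (limma adjusted p = 0.064) and without any single array other than Bmi1 replicate 3 (limma adjusted p = 0.089 to 0.13).

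Of 19864 genes outside the number range, those whose 6 array values lay nearest to Olfr618 were Epha7, Gria4, Rps6ka6, Fgl2 and Ecm2, with root mean square differences of 0.43, 0.57, 0.57, 0.79 and 0.90 on the log2 scale. This measure takes the array values as they are, so the order also moves with how strongly each probe set responds. The 5 genes code for an Eph receptor, an AMPA receptor subunit, a ribosomal S6 kinase, a fibrinogen-like protein and a matrix protein. Epha7 read 3.26, 3.25 and 3.23 with Bmi1 and 7.12, 7.16 and 6.93 with the empty vector. The 5 genes share with Olfr618 a low value in all Bmi1 arrays and a high one in all empty vector arrays, and with 2 groups of arrays the likeness describes that contrast. Their log2 differences were -3.82, -5.10, -3.51, -3.31 and -2.52.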

How the data were processed

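RNA of 6 neurosphere samples, 3 with Bmi1 overexpression and 3 with the empty vector, was hybridized to Mouse Gene ST arrays of Affymetrix (300 ng per sample). The authors deposited log2 expression values of probe sets, and the processing notes of the submitters name RMA and Expression Console of Affymetrix, with versions and genome build not given there. Of 35557 probe sets, 21789 name 1 gene and 1621 name several in the platform annotation.

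Arrays were grouped by title. All probe sets entered limma 3.58.1 under R 4.3.3 (a linear model per probe set with moderated two-sided tests and no filter), and p-values were adjusted over all of them by the Benjamini-Hochberg method. The script was tested on simulated data. The number of arrays limits the precision, and an exact permutation test of 3 against 3 cannot go below p = 0.1. Genes were matched to RefSeq (GRCm38.p6) by Entrez identifier, 74 of 74 members with the same symbol. RefSeq gave gene order, MOR names and start windows, and its coordinates are printed for the windows only.

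The members and lists were chosen with earlier results of these data known, and lists are described by counts and medians with no set test. Genes were named by rule: Olfr618, the 5 receptor genes on each side, the 5 largest rises, falls and means among the other members, the nearest genes of other kinds and those past the test in the stretch, up to 4 called genes of each list, Bmi1 and the 5 nearest profiles. Trim genes were named by their place. Omp, Cnga2, Gnal, Lhx2, Nes, Sox2, Gfap, Slc1a3, Olig2 and Egfr were named after their values were seen. So were the MOR31 genes, the genes without overlap and the called receptor genes elsewhere. Protein identity was not used here. Alternatives were the methods' t-test, Welch's form of it, another variance prior, array weights, median centring, quantile normalization, filters at a mean of 4 or 5, the replicate number as a block, the mean of a gene's probe sets and leaving out each array. Python 3.11.15 and matplotlib 3.10.9 were used for tables and figures.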

Additional observations from a re-analysis of the deposited data

How the results depend on the processing

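The log2 difference of Olfr618 was -4.42 to -4.02 under the alternatives run, and the median of the other 73 genes lay between 0.03 and 0.06 without any single array. Over all probe sets, 2025 were called in the values as reported, against 300 by the methods' t-test, 210 by Welch's test after adjustment, 3062 with a trended and robust variance prior, 3159 and 3424 at a mean of at least 4 and 5, and 974 to 1275 without any single array. Replicate numbers did not pair the arrays (correlations of deviations 3.39e-05, -0.0319 and -0.0176), and with the replicate block 850 probe sets, 0 other receptor genes, 1 neighbour of another kind and 3 list genes were called.

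Among the 73 genes, the calls numbered 1 with a gene's probe sets averaged and 0 to 1 without any single array. Groups did not overlap in 7 of them, against 0 of those with a mean of at least 4 and 12 to 21 without any single array. At a mean of at least 5 none of the 73 was left. Calls among the 952 other receptor genes (4 as reported) numbered 0 by the methods' t-test, 2 by that test after adjustment, 0 by Welch's test, 2 and 0 at a mean of at least 4 and 5, and 0 to 1 without any single array. Calls among neighbours of other kinds (3 as reported) numbered 1 by the methods' t-test, 0 by Welch's test and 1 to 2 without any single array. Calls among the list genes (9 as reported) numbered 1 by the methods' t-test, 5 by that test after adjustment, 0 by Welch's test and 5 to 8 without any single array. Filters and left-out arrays change how many features or samples enter. The cause of the other shifts was not tested.

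Genes near 0 changed sign without being called. After median centring Olfr613 was at -0.0011, Olfr620 at -0.0297 and Olfr678 at -0.0429, after quantile normalization Olfr678 was at -0.04, and with array weights Olfr658 was at 0.0047. Without any single array the range was -0.0938 to 0.10 for Olfr620, -0.19 to 0.0364 for Olfr623, -0.0832 to 0.19 for Olfr678, -0.0285 to 0.0325 for Olfr658 and -0.0932 to 0.15 for Hbb-bh2. With 3 arrays a group, the widest interval among the 73 genes was 0.58 to either side.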
